A study of Homo sapiens with 9 samples.

Results

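The epidermal growth factor receptor (EGFR) family was followed through its receptors EGFR, ERBB2 and ERBB3, its ligands AREG, EREG, HBEGF, TGFA, BTC and NRG1, and its feedback inhibitor ERRFI1. These 10 genes were taken by symbol, whatever their level, from the 51796 genes of the deposited count table. All 10 matched 1 row each, and all 10 were among the 14582 genes with enough reads to test.

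EGFR family receptors are tyrosine kinases of the cell surface that pair with each other when a ligand binds, and then switch on the RAS-ERK and PI3K-AKT relays. The ligands are made as membrane proteins and are released by proteases, so a cell can stimulate itself and its neighbours. ERRFI1 (MIG6) is induced by the active pathway and blocks the EGFR kinase, which closes a feedback loop. EGFR and its ligands are best known in lung adenocarcinoma as drivers and drug targets.

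The cells were A549, an established human lung adenocarcinoma line grown in RPMI medium with serum. Stable short hairpin RNA against GFP (GFPkd, the control), PRMT5 (PRMT5kd) or MEP50 (MEP50kd) was kept in all 3 groups under puromycin, with 3 biological replicates each. PRMT5 is an enzyme that methylates arginines of histones and other proteins, and MEP50, the product of WDR77, is its partner subunit. The study asked what each of them does to gene expression in these cells. The labels name 1 hairpin group per target and do not say how many hairpins or clones were used, so loss of the target cannot be told apart from other effects of its hairpin or cell line. They also do not say how separately the replicates were grown, so the p-values measure the spread between these libraries.

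The libraries held between 20806181 and 31586128 reads on genes. PRMT5 stood at 208.5 ± 3.17 CPM (reads scaled to library size with TMM factors; SD, n = 3) in the control and 68.9 ± 1.33 in PRMT5kd, a log2 fold change of -1.60 ± 0.0348 (SE; adjusted p = 1.98e-32, edgeR quasi-likelihood test with Benjamini-Hochberg adjustment). WDR77 stood at 39.4 ± 0.225 CPM in the control and 12.5 ± 1.58 CPM in MEP50kd, a log2 fold change of -1.65 ± 0.075 (adjusted p = 1.33e-21, edgeR). Both targets were therefore lower in the libraries labelled for them. The epithelial markers KRT8, KRT18 and CDH1 were present, while KRT19 had 2 reads and EPCAM 48 reads in all 9 libraries. Summed over the 5 epithelial markers, the level was 6342 to 6573 CPM in the control, 4150 to 4311 in PRMT5kd and 3866 to 4142 in MEP50kd. KRT8 and KRT18 made up nearly all of it, while CDH1 was at 40.1 ± 1.64, 34.9 ± 2.45 and 75.6 ± 8.5 CPM and thus rose in MEP50kd (log2 fold change 0.92 ± 0.0641, adjusted p = 8.73e-14, edgeR), against the sum. Of the lung markers, SFTPB had no read and NKX2-1 had 18, and the sum of the 5 was 37.0 to 38.7, 80.3 to 81.2 and 66.9 to 76.0 CPM in the same order. ABCA3 alone gave 36.6 ± 0.788, 79.7 ± 0.655 and 70.3 ± 4.72 CPM of that sum, beside NAPSA at 0.973 ± 0.193, 0.916 ± 0.232 and 0.885 ± 0.2 CPM. The 6 fibroblast markers summed to 107.6 to 110.2 CPM in the control, 221.0 to 232.8 in PRMT5kd and 272.2 to 290.3 in MEP50kd, with DCN at 1 read and COL1A2 at 10 reads in all. COL3A1 gave most of that sum, at 96.6 ± 0.502, 214.4 ± 6.22 and 256.2 ± 8.83 CPM, and LUM went the other way in PRMT5kd, from 5.17 ± 0.646 to 0.629 ± 0.240 CPM (log2 fold change -3.06 ± 0.217, adjusted p = 2.01e-15, edgeR). Blood and endothelial markers were at or near 0, with sums of at most 0.200 and 0.270 CPM. The part of these marker differences in the results below was not tested.

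Of the 10 genes, 3 rose and 4 fell in PRMT5kd, and 4 rose and 5 fell in MEP50kd (adjusted p under 0.05, edgeR). Among all genes tested, 26.1% rose and 24.9% fell in PRMT5kd, and 26.5% rose and 25.2% fell in MEP50kd, so changed genes were common in both knockdowns. EGFR, TGFA and NRG1 rose in both, and ERBB2, HBEGF and ERRFI1 fell in both. ERBB3 fell in PRMT5kd and rose in MEP50kd. AREG and EREG fell in MEP50kd and were not called in PRMT5kd, and BTC was called in neither. The median log2 fold change of the 10 was -0.09 in PRMT5kd and -0.22 in MEP50kd, beside 0.0032 and -0.0019 over all genes. Both comparisons use the same control libraries and are not independent. These are bulk samples, in which fewer cells of a type and less RNA per cell cannot be told apart.

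**Figure D1:**
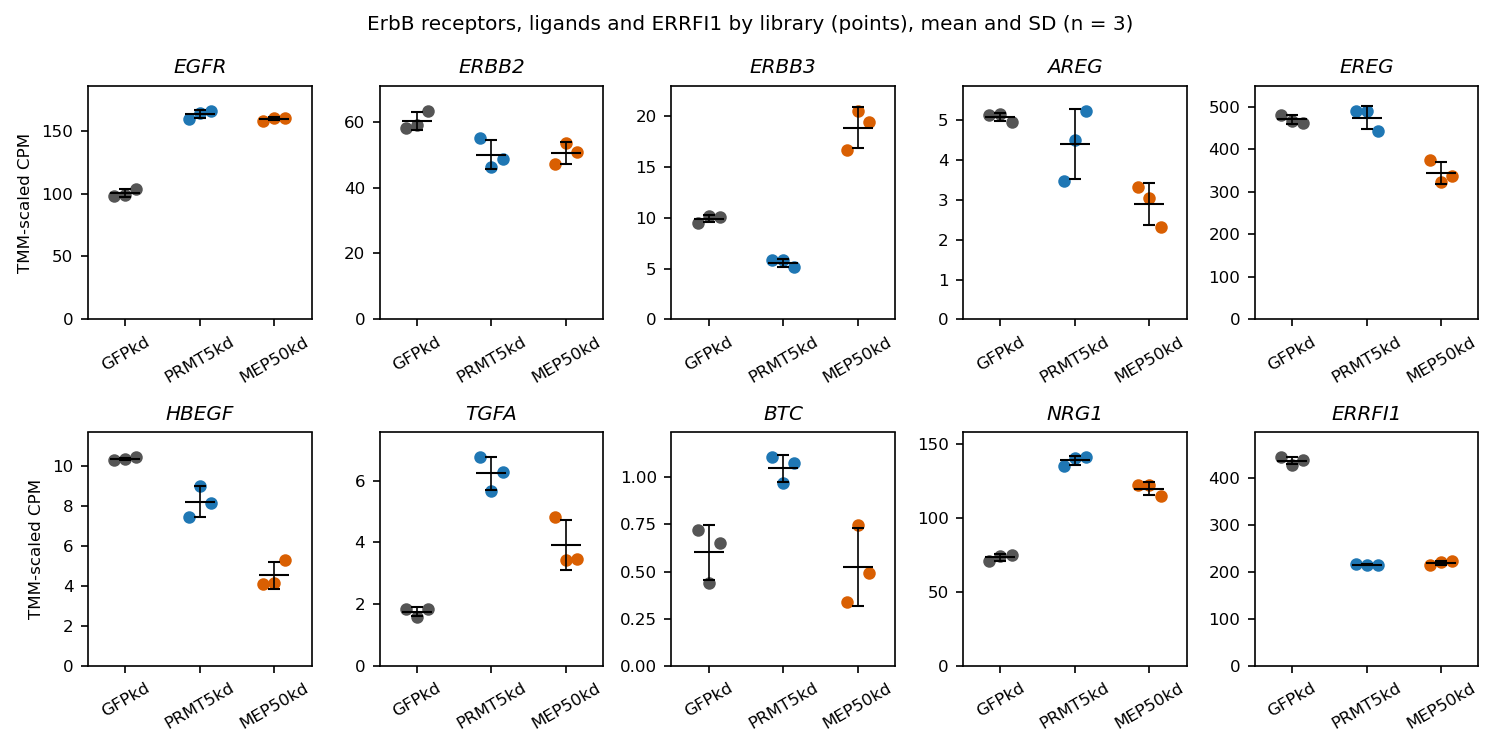
TMM-scaled CPM of each of the 10 genes in each of the 9 libraries, one panel a gene, with points for libraries, a line for the group mean and bars of 1 SD; each vertical axis starts at 0. ERRFI1 is at 427.6 to 443.1 CPM in the control and at 221.9 CPM or below in all 6 knockdown libraries, whereas ERBB3 is lowest in PRMT5kd and highest in MEP50kd.

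Among the receptors, EGFR (ENSG00000146648; chr7:55019021-55211628, plus strand, GRCh38) rose 1.62-fold in PRMT5kd and 1.59-fold in MEP50kd. Its level was 98.5, 99.1 and 104.0 CPM in the control, 159.5, 164.5 and 165.8 CPM in PRMT5kd, and 158.1, 160.3 and 160.0 CPM in MEP50kd. Every knockdown library lay above every control library, and the libraries of the knockdowns overlapped. The log2 fold changes were 0.70 ± 0.0344 (adjusted p = 1.8e-20, edgeR) and 0.67 ± 0.0349 (adjusted p = 1.38e-19). Between the knockdowns, EGFR differed by 0.03 ± 0.0337 on the log2 scale (adjusted p = 0.451, edgeR). The antisense gene EGFR-AS1 had 0 to 3 reads per library; the strand setting of the counting is not given in the sources used here.

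The 250 bases before the main EGFR start (chr7:55018767-55019016, plus strand; RefSeq, GRCh38.p14) are shown because EGFR RNA moved by nearly the same amount in both knockdowns. Capitals mark each GC box (GGGCGG or its complement CCGCCC), the letters bound by SP1-type factors:
EGFR: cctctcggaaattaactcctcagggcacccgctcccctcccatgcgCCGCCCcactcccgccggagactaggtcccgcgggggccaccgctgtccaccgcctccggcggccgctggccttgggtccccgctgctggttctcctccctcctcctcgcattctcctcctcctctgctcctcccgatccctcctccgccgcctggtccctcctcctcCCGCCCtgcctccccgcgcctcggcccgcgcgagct
The boxes lie 204 and 36 bases before the start, and no TATAAA was found there. GGGCGG on either strand occurs in 42.6% of 35116 human windows of this length. A match is a description of the letters only, and no binding was measured.

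ERBB2 (ENSG00000141736; chr17:39687914-39730426, plus strand), the receptor with no known ligand and the preferred partner of the others, was slightly lower in both knockdowns. It stood at 58.0, 59.1 and 63.2 CPM in the control, 55.0, 46.4 and 48.7 CPM in PRMT5kd, and 47.0, 53.5 and 50.9 CPM in MEP50kd. The knockdown libraries overlapped each other and lay below the control libraries. ERBB2 was 1.21-fold lower in PRMT5kd (log2 fold change -0.27 ± 0.0563, adjusted p = 0.000106, edgeR) and 1.19-fold lower in MEP50kd (-0.25 ± 0.0574, adjusted p = 0.000289). The difference between the knockdowns was -0.02 ± 0.058 (adjusted p = 0.847, edgeR).

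ERBB3 (ENSG00000065361; chr12:56076799-56103505, plus strand), a neuregulin receptor with little kinase activity that recruits PI3K through its partners, moved in opposite directions. It was at 9.50, 10.2 and 10.1 CPM in the control, 5.80, 5.81 and 5.11 CPM in PRMT5kd, and 16.7, 20.5 and 19.5 CPM in MEP50kd. No library of one group overlapped with another group. ERBB3 was 1.78-fold lower in PRMT5kd (log2 fold change -0.84 ± 0.112, adjusted p = 4.33e-08, edgeR) and 1.91-fold higher in MEP50kd (0.93 ± 0.1, adjusted p = 2.14e-10). The level in PRMT5kd was 3.40-fold below that in MEP50kd (log2 difference -1.77 ± 0.107, adjusted p = 5.24e-17, edgeR).

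Among the ligands, TGFA (ENSG00000163235; chr2:70447280-70554193, minus strand), an EGFR ligand often made by tumour cells that carry the receptor, was one of those that rose in both knockdowns. It was at 1.84, 1.58 and 1.85 CPM in the control, 6.75, 5.68 and 6.28 CPM in PRMT5kd, and 4.83, 3.41 and 3.45 CPM in MEP50kd. The 3 groups did not overlap. These levels rest on 144, 546 and 271 reads per group. TGFA was 3.55-fold higher in PRMT5kd (log2 fold change 1.83 ± 0.179, adjusted p = 2.12e-11, edgeR) and 2.21-fold higher in MEP50kd (1.14 ± 0.193, adjusted p = 3.32e-06). PRMT5kd exceeded MEP50kd 1.61-fold (log2 difference 0.68 ± 0.163, adjusted p = 0.000788, edgeR).

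NRG1 (ENSG00000157168), the neuregulin that binds ERBB3 and ERBB4, was at 70.8, 74.5 and 75.0 CPM in the control. It was at 135.1, 140.7 and 140.9 CPM in PRMT5kd and at 122.5, 122.3 and 114.7 CPM in MEP50kd, again with no overlap between groups. The rise was 1.89-fold in PRMT5kd (log2 fold change 0.92 ± 0.0388, adjusted p = 1.1e-22, edgeR) and 1.63-fold in MEP50kd (0.70 ± 0.0397, adjusted p = 1.46e-18). The knockdowns differed by 0.22 ± 0.0378 on the log2 scale (adjusted p = 1.21e-05, edgeR). NRG1 thus rose in both knockdowns, while its receptor ERBB3 rose in MEP50kd and fell in PRMT5kd.

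EREG (ENSG00000124882; chr4:74365143-74388751, plus strand), which encodes epiregulin, a low-affinity ligand of EGFR and ERBB4, was the ligand with the most reads. It stood at 480.5, 467.3 and 462.2 CPM in the control, 490.0, 489.7 and 444.0 CPM in PRMT5kd, and 373.7, 322.7 and 337.6 CPM in MEP50kd. PRMT5kd libraries fell on both sides of the control libraries, whereas every MEP50kd library lay below them. EREG was not called in PRMT5kd (log2 fold change 0.01 ± 0.0507, adjusted p = 0.848, edgeR) and was 1.36-fold lower in MEP50kd (-0.45 ± 0.0515, adjusted p = 1.07e-05). PRMT5kd exceeded MEP50kd 1.38-fold (log2 difference 0.46 ± 0.0514, adjusted p = 1.43e-05, edgeR).

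AREG (ENSG00000109321; chr4:74445134-74455009, plus strand), which encodes amphiregulin, an EGFR ligand and known YAP target, was at 5.15, 5.16 and 4.96 CPM in the control. It was at 3.47, 4.52 and 5.24 CPM in PRMT5kd, which overlapped with the control, and at 3.33, 3.04 and 2.32 CPM in MEP50kd, which did not. AREG was 1.78-fold lower in MEP50kd (log2 fold change -0.83 ± 0.177, adjusted p = 0.000131, edgeR) and was not called in PRMT5kd (-0.20 ± 0.162, adjusted p = 0.327). PRMT5kd and MEP50kd differed by 0.63 ± 0.179 (adjusted p = 0.00423, edgeR). That call was lost without PRMT5kd replicate 3 (0.48, adjusted p = 0.0551, edgeR) and without MEP50kd replicate 3 (0.48, adjusted p = 0.0554). Its near-identical copy AREGB had 0 to 5 reads per library, and reads shared between the copies could be split or lost, so the AREG level is uncertain.

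HBEGF (ENSG00000113070; chr5:140332843-140346631, minus strand), heparin-binding EGF-like growth factor, was at 10.3, 10.4 and 10.4 CPM in the control. It was at 7.46, 9.0 and 8.17 CPM in PRMT5kd and at 4.11, 4.16 and 5.32 CPM in MEP50kd, so all 3 groups were apart. HBEGF was 2.26-fold lower in MEP50kd (log2 fold change -1.18 ± 0.129, adjusted p = 3.43e-10, edgeR) and 1.26-fold lower in PRMT5kd (-0.33 ± 0.116, adjusted p = 0.0157). The PRMT5kd call was lost without PRMT5kd replicate 1 (-0.28, adjusted p = 0.0653, edgeR). The knockdowns differed by 0.85 ± 0.131 on the log2 scale (adjusted p = 1.39e-06, edgeR).

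BTC (ENSG00000174808; chr4:74744759-74794686, minus strand), betacellulin, a ligand of EGFR and ERBB4, had the fewest reads, with 49 in the control, 92 in PRMT5kd and 37 in MEP50kd. Its level was 0.72, 0.44 and 0.65 CPM in the control, 1.10, 0.97 and 1.07 CPM in PRMT5kd, and 0.34, 0.75 and 0.49 CPM in MEP50kd. PRMT5kd lay above the control in all 3 libraries, and MEP50kd overlapped with it. BTC missed the threshold in PRMT5kd (log2 fold change 0.80 ± 0.358, adjusted p = 0.0586, edgeR) and in MEP50kd (-0.18 ± 0.408, adjusted p = 0.734). The depth-adjusted ratio of reads, PRMT5kd to control, was 1.76 with a 95% exact binomial interval of 1.23 to 2.54, and MEP50kd to control 0.882 (0.560 to 1.38), which covers counting error only. The difference between the knockdowns was called (0.99 ± 0.375, adjusted p = 0.0333, edgeR). The call, though hardly the size of the difference, was lost with DESeq2 (0.991, adjusted p = 0.0658) and with no low-count filter (0.997, adjusted p = 0.0594). It was also lost without PRMT5kd replicate 1 (0.94), 2 (1.04) or 3 (0.96) or MEP50kd replicate 1 (0.77) or 3 (0.93).

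The promoters of TGFA, which rose in both knockdowns, and of the chromosome 4 neighbours EREG and AREG, which fell in MEP50kd, are set side by side. Windows are the 250 bases before a RefSeq start in GRCh38.p14, at chr2:70553827-70554076 (minus strand, 1 of 2 TGFA starts), chr4:74364895-74365144 and chr4:74444886-74445135 (both plus strand). Capitals mark GC boxes as above, TATA boxes (TATAAA or TTTATA) and the cyclic AMP response element (TGACGTCA):
TGFA: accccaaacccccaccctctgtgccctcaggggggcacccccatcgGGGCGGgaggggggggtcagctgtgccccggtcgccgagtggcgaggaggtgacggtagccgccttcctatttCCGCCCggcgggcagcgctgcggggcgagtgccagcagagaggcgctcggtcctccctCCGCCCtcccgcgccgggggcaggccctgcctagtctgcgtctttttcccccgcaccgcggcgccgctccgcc
EREG: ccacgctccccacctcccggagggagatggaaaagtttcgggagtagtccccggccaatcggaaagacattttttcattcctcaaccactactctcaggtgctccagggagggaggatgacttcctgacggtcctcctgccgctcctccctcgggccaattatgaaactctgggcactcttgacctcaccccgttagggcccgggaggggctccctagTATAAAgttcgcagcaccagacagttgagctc
AREG: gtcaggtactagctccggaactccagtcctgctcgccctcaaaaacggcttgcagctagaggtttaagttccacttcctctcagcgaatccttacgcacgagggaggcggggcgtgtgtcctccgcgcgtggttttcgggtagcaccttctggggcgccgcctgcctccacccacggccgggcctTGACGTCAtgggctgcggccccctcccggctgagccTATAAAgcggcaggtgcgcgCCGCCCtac
TGFA holds 3 GC boxes and no TATA box at this start, and neither motif at its other start. EREG holds a TATA box 32 bases before the start and AREG one 29 bases before it, a motif found in 10.7% of all windows. AREG also holds a cyclic AMP response element 65 bases before the start, found in 1.65% of windows, and a GC box at 9 bases. The AP-1 motif TGAGTCA or TGACTCA, found in 4.20% of windows, was in none of these 3. ERBB3 had no entry and NRG1 was left out of the search, so windows of 8 of the 10 genes were searched. Of those not printed, HBEGF holds 5 GC boxes, the second EGFR start holds 2 TATA boxes and 2 AP-1 motifs, and BTC and ERBB2 hold none of these motifs.

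ERRFI1 (ENSG00000116285; chr1:8004404-8026308, minus strand), the feedback inhibitor of the receptors, fell about as much in both knockdowns. It was at 443.1, 427.6 and 438.7 CPM in the control, 217.0, 215.0 and 214.5 CPM in PRMT5kd, and 213.7, 219.8 and 221.9 CPM in MEP50kd. The lowest control library was far above the highest knockdown library, and the knockdowns overlapped. ERRFI1 was 2.03-fold lower in PRMT5kd (log2 fold change -1.02 ± 0.0286, adjusted p = 8.45e-29, edgeR) and 2.00-fold lower in MEP50kd (-0.998 ± 0.0289, adjusted p = 2.97e-28). The knockdowns differed by -0.02 ± 0.0292 (adjusted p = 0.62, edgeR).

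The window before the ERRFI1 start (chr1:8026310-8026559, minus strand) is shown for comparison with EGFR. Each gene changed by nearly the same amount in both knockdowns, EGFR upward (log2 fold changes 0.70 and 0.67) and ERRFI1, by more, downward (-1.02 and -0.998):
ERRFI1: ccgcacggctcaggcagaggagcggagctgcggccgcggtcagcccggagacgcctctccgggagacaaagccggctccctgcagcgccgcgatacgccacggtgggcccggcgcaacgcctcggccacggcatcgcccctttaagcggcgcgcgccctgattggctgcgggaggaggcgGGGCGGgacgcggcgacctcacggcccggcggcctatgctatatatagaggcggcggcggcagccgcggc
It holds 1 GC box, 70 bases before the start, where EGFR holds 2. Neither window holds the exact letters searched for the TATA box, the AP-1 motif or the cyclic AMP response element. The ERRFI1 window does hold tatatata near its end, a TATA-like run that the exact search did not count.

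Between the knockdowns, 6 of the 10 genes were higher in PRMT5kd and 1, ERBB3, was lower, beside 19.2% and 20.5% of all genes tested (edgeR). The 6 were the 6 ligands among the 10: TGFA, NRG1, EREG, AREG, HBEGF and BTC. The median log2 difference of the 10 was 0.34, beside 0.0012 over all genes. EGFR, ERBB2 and ERRFI1 missed the threshold, and their knockdown libraries overlapped. That overlap comes from the same libraries as the test, and the share of all genes with such overlap was not computed. A difference that misses the threshold does not show that the levels were equal.

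**Figure D2:**
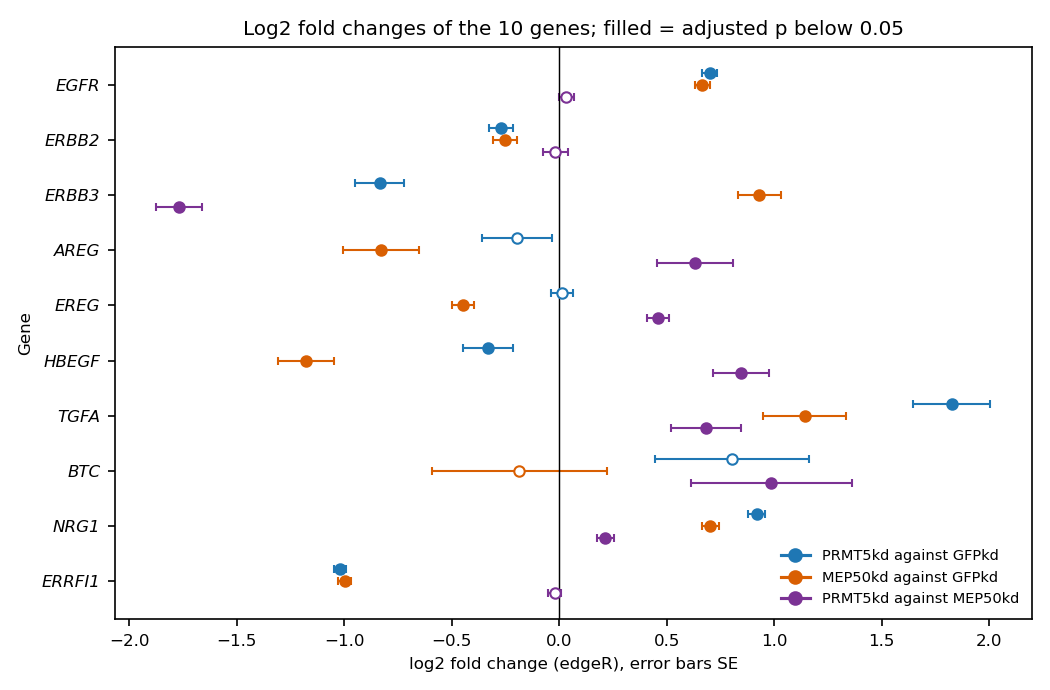
Log2 fold change of each of the 10 genes in 3 comparisons (horizontal axis, edgeR), with bars of 1 SE; filled points have an adjusted p under 0.05. EGFR, ERBB2 and ERRFI1 have both knockdown points side by side and a between-knockdown point near 0, and the ERBB3 points run from -1.77 to 0.93.

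Levels of different genes were compared per length, as CPM per kilobase of all annotated exons of the gene. In the control, ERRFI1 had the highest level per length at 104.3 ± 1.91, followed by EREG at 82.2 ± 1.65, EGFR at 8.03 ± 0.239, NRG1 at 6.49 ± 0.202 and ERBB2 at 5.83 ± 0.267. HBEGF (3.43 ± 0.0226), AREG (3.09 ± 0.067), ERBB3 (1.10 ± 0.0406), TGFA (0.354 ± 0.0299) and BTC (0.214 ± 0.052) followed, and no neighbours in this order overlapped between libraries. EREG was thus the highest of the ligands and EGFR the highest of the receptors on this length. The AREG level is uncertain, as given above, so its place in this order, also relative to EREG, is uncertain too.

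In both knockdowns EREG was first per length, at 83.0 ± 4.63 in PRMT5kd and 60.3 ± 4.59 in MEP50kd. ERRFI1 was next, at 51.5 ± 0.313 and 52.2 ± 1.02 CPM per kilobase. EGFR, at 13.0 ± 0.266 and 12.7 ± 0.0941, stayed ahead of NRG1, at 12.3 ± 0.291 and 10.6 ± 0.39. In PRMT5kd, TGFA (1.26 ± 0.108) stood above ERBB3 (0.617 ± 0.0441), the reverse of the control, while HBEGF and AREG overlapped. In MEP50kd, ERBB3 rose to 2.09 ± 0.22 per kilobase and overlapped with AREG (1.76 ± 0.315), which overlapped with HBEGF (1.5 ± 0.227). The order depends on the length used: with the longest transcript of each gene, EGFR at 10.2 CPM per kilobase stood below NRG1 at 12.4 and ERBB2 at 12.2 in the control. On that length EGFR was also below NRG1 in PRMT5kd (16.6 against 23.4) and in MEP50kd (16.2 against 20.2).

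**Figure D3:**
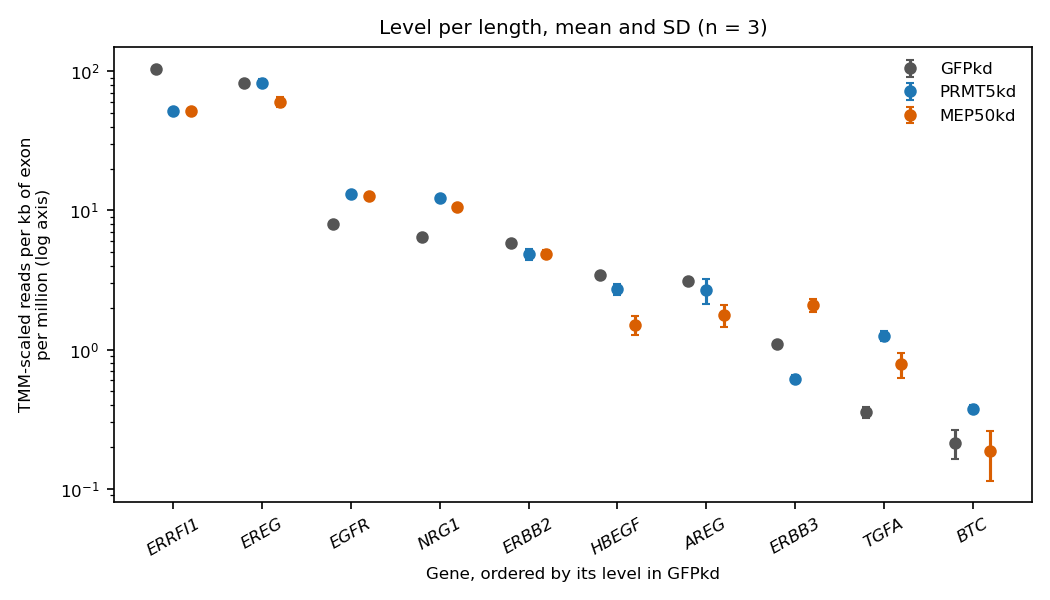
CPM per kilobase of annotated exons (log axis) for the 10 genes in each group, with points for the mean and bars of 1 SD (n = 3). ERRFI1 and EREG lie apart from the rest in all 3 groups, and ERBB3 and TGFA change places between PRMT5kd and the control.

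The make-up of the receptor RNA differed between the groups. Of the summed level per length of EGFR, ERBB2 and ERBB3, EGFR took 53.7 ± 0.359% in the control, 70.5 ± 2.08% in PRMT5kd and 64.6 ± 1.60% in MEP50kd. ERBB2 took 38.9 ± 0.406%, 26.2 ± 2.03% and 24.8 ± 0.821%, and ERBB3 took 7.34 ± 0.251%, 3.33 ± 0.246% and 10.6 ± 0.792% in the same order. With the longest transcript, ERBB2 took 50.6% and EGFR 42.5% in the control, and EGFR took 60.0% in PRMT5kd and 54.8% in MEP50kd. EGFR was thus the larger share in both knockdowns with either length, whereas the leading receptor of the control depended on the length.

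EREG took 85.8 ± 0.372% of the summed level per length of the 6 ligands in the control, 81.1 ± 1.46% in PRMT5kd and 80.2 ± 1.06% in MEP50kd. NRG1 took 6.77 ± 0.314%, 12.0 ± 0.657% and 14.1 ± 0.892%. HBEGF took 3.58 ± 0.0783%, 2.66 ± 0.248% and 2.01 ± 0.366%, and TGFA took 0.369 ± 0.0307%, 1.23 ± 0.124% and 1.04 ± 0.145%. The fold change of TGFA was the largest of the 6 ligands in PRMT5kd, yet its mean share of their summed level was at most 1.23%. The summed level of the 6 ligands was 95.8 ± 1.5 CPM per kilobase in the control, 102.3 ± 4.10 in PRMT5kd and 75.1 ± 4.90 in MEP50kd. EGF and NRG4, given below, are not part of these shares or this sum. AREG enters these shares and this sum at its uncertain level.

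The ratio of EGFR to its inhibitor joined both changes. EGFR stood at 0.0770 ± 0.00249 of the ERRFI1 level per length in the control, 0.253 ± 0.00669 in PRMT5kd and 0.244 ± 0.00321 in MEP50kd. That is 3.29-fold and 3.17-fold above the control, and the libraries of each knockdown lay far from those of the control. The ratio of EGFR to ERBB2 was 1.38 ± 0.0223 in the control, 2.71 ± 0.279 in PRMT5kd and 2.61 ± 0.152 in MEP50kd. The ratio of EGFR to ERBB3 was 7.32 ± 0.257 in the control, 21.2 ± 1.91 in PRMT5kd and 6.14 ± 0.63 in MEP50kd, so it moved in opposite directions. Ratios are of RNA levels; the proteins and their phosphorylation were not measured.

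**Figure D4:**
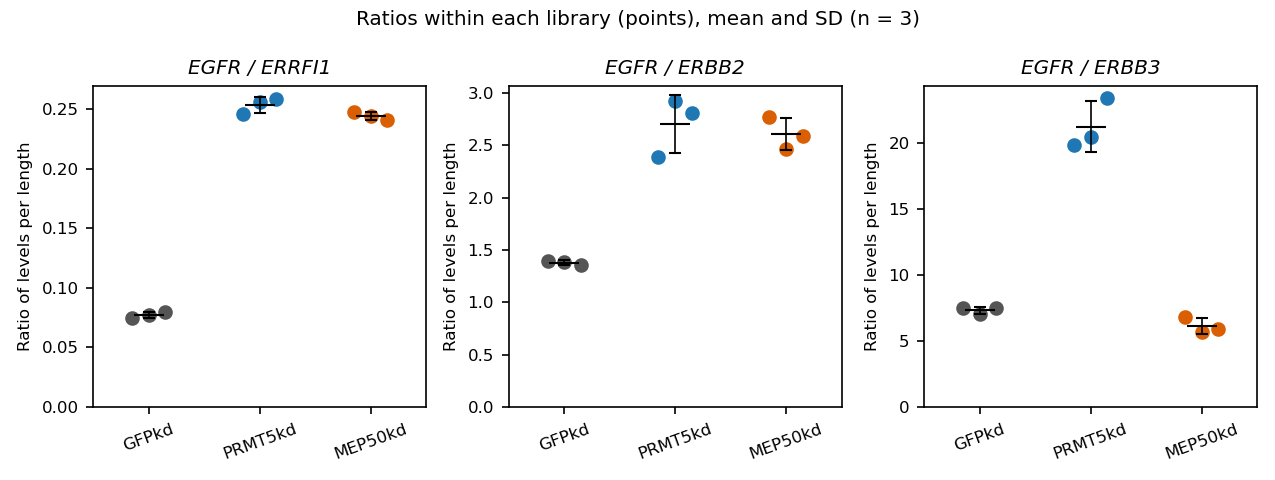
Ratio of the EGFR level per length to that of ERRFI1, ERBB2 and ERBB3 (one panel each, vertical axis from 0) in each of the 9 libraries, with the group mean as a line and bars of 1 SD. The ratio to ERRFI1 goes from 0.0770 in the control to 0.253 and 0.244, and the ratio to ERBB3 is high only in PRMT5kd, at 21.2.

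The 87 listed genes of the wider pathway were taken as 6 lists, of which 70 genes were tested. In PRMT5kd 30 rose and 21 fell, in MEP50kd 29 rose and 22 fell (edgeR), with median log2 fold changes of 0.07 and 0.03. These were 42.9% and 30% of the tested pathway genes in PRMT5kd and 41.4% and 31.4% in MEP50kd, beside 26.1% and 24.9%, and 26.5% and 25.2%, of all genes tested. Pathway genes and all genes were not matched for read number, and its part in these shares was not tested. The counts of each list below are read against the same shares of all genes. Of the 6 other ErbB receptors and ligands, 2 were tested, and both fell in both knockdowns. EGF, the founding ligand, was at 2.84 ± 0.429 CPM in the control, 1.49 ± 0.266 in PRMT5kd (log2 fold change -0.93 ± 0.241, adjusted p = 0.00132, edgeR) and 0.683 ± 0.125 in MEP50kd (-2.03 ± 0.28, adjusted p = 6.79e-08). NRG4, a ligand of ERBB4, was at 10.9 ± 1.01, 4.39 ± 0.958 and 3.85 ± 0.159 CPM, with log2 fold changes of -1.33 ± 0.137 and -1.50 ± 0.144 (adjusted p = 7.94e-11 and 1.08e-11, edgeR). ERBB4 had 25 reads in all 9 libraries, EPGN 15, NRG2 41 and NRG3 0, so their level could not be compared; ERBB4, EPGN and NRG2 were named after their values were seen.

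Of 11 tested genes listed under receptor restraint, 5 rose and 4 fell in each knockdown (edgeR, 81.8% called). Their median log2 fold changes were -0.03 in PRMT5kd and 0.09 in MEP50kd. Whether each listed gene restrains the receptors in these cells was not tested. CBLB, a ubiquitin ligase that marks EGFR for breakdown, went from 26.3 ± 0.444 CPM in the control to 7.89 ± 0.653 in PRMT5kd and 11.3 ± 0.661 in MEP50kd. Its log2 fold changes were -1.73 ± 0.0888 and -1.22 ± 0.0875 (adjusted p = 7.14e-20 and 2.38e-15, edgeR). CBLB therefore fell in both knockdowns, as ERRFI1 did, and so did CBL and PTPRJ of this list. SOCS5, SH3KBP1, LRIG2 and PTPN1 of the same list rose in both. The log2 fold changes in PRMT5kd and MEP50kd were 0.62 and 0.43 for SOCS5 and 0.35 and 0.74 for SH3KBP1 (edgeR). All of these but CBLB and ERRFI1 were named after their values were seen. LRIG1, a membrane protein that lowers EGFR levels, was at 0.793 ± 0.206 CPM in the control, 2.65 ± 0.198 in PRMT5kd and 0.800 ± 0.195 in MEP50kd; it was chosen after its values were seen, and PRMT5kd differed from MEP50kd by 1.70 ± 0.28 on the log2 scale (edgeR). Among 11 tested genes of ligand shedding and receptor trafficking, 5 rose and 2 fell in PRMT5kd, and 2 rose and 5 fell in MEP50kd. None of that list passed the rule for naming, a change of at least 0.5 on the log2 scale in the same direction in both knockdowns. RHBDF2 (iRhom2), which carries the sheddase ADAM17 to the surface, was at 29.4 ± 1.13 CPM in the control, 29.3 ± 1.16 in PRMT5kd and 18.7 ± 2.22 in MEP50kd, and was also chosen after its values were seen.

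Of the 17 adaptors and RAS-ERK relay genes, all tested, 3 rose and 7 fell in PRMT5kd (58.8% called) and 5 rose and 6 fell in MEP50kd (64.7% called; edgeR), beside the 26.1% and 24.9% of all genes that rose and fell in PRMT5kd and the 26.5% and 25.2% in MEP50kd. Of 11 tested genes of the PI3K-AKT, PLC and STAT branches, 6 rose and 2 fell in PRMT5kd and 8 rose and 1 fell in MEP50kd, with median log2 fold changes of 0.16 and 0.14. No gene of either list passed the rule for naming.

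Of 18 tested other receptor tyrosine kinases, 11 rose and 4 fell in PRMT5kd (83.3% called) and 9 rose and 4 fell in MEP50kd (72.2% called; edgeR). EPHB2, an ephrin receptor, went from 2.95 ± 0.484 CPM in the control to 34.5 ± 2.01 in PRMT5kd and 42.5 ± 1.99 in MEP50kd, 11.6-fold and 14.3-fold higher. AXL, a TAM-family receptor known to act beside EGFR in drug-tolerant lung cancer cells, went from 142.8 ± 4.83 CPM to 350.1 ± 3.74 and 465.0 ± 1.82, with log2 fold changes of 1.29 and 1.70. FGFR3 (17.8 ± 1.06 CPM in the control) and the insulin receptor INSR (32.5 ± 1.13 CPM) fell, to 7.77 ± 0.133 and 14.1 ± 1.76 CPM in PRMT5kd and to 8.46 ± 1.07 and 20.8 ± 0.544 CPM in MEP50kd. PDGFRA had 6 reads in the control, 26 in PRMT5kd and 36 in MEP50kd. Its PRMT5kd log2 fold change of 1.95 ± 0.728 (adjusted p = 0.0239, edgeR) lost the call with DESeq2 (2.00) and without GFPkd replicate 1 (1.44) or 2 (1.59) or PRMT5kd replicate 2 (1.47). Genes with fewer than 10 reads in all 9 libraries included NRG3, RHBDL2, CBLC, STAT5A, RET, ALK, NTRK2, KDR, FLT1 and TEK.

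**Figure D5:**
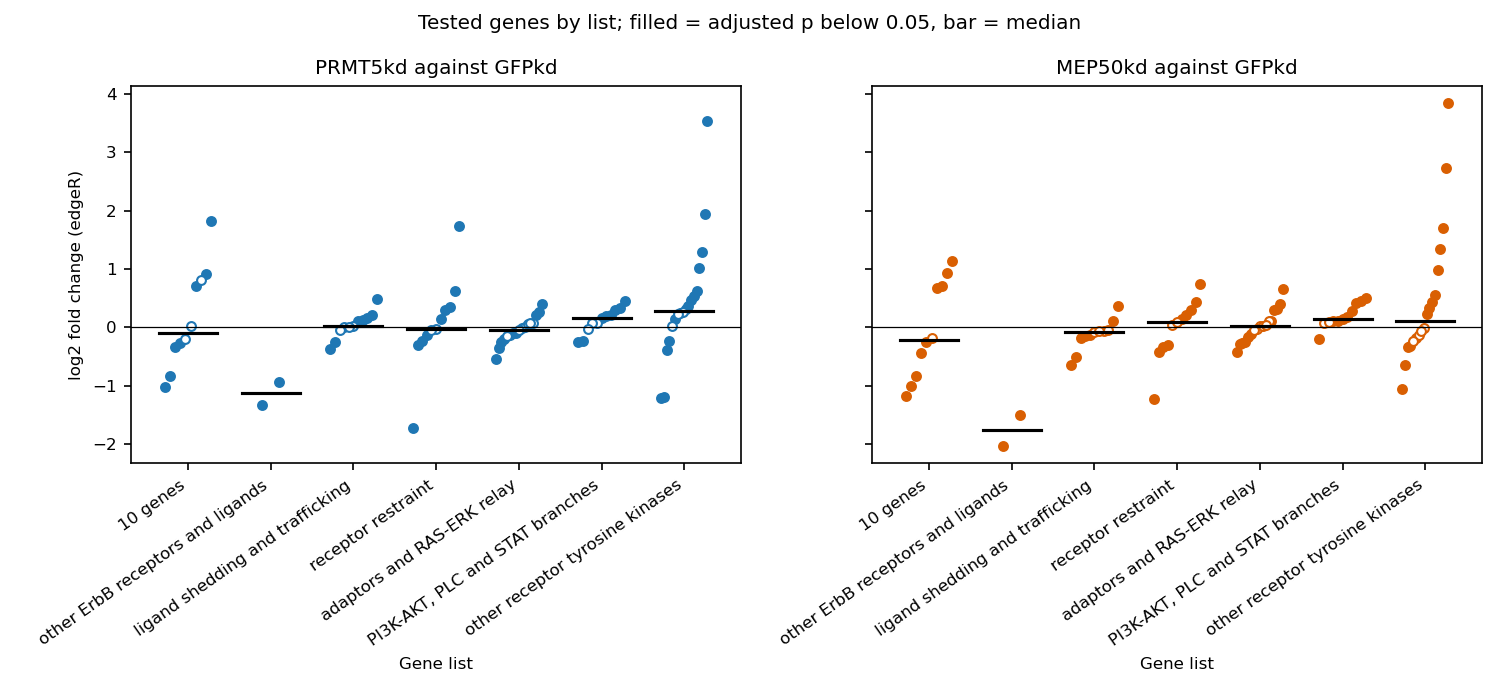
Log2 fold change against GFPkd (vertical axis) of the 10 genes and of the tested genes of the 6 pathway lists, in PRMT5kd and MEP50kd, one point a gene, filled where the adjusted p is under 0.05 (edgeR), with the list's median as a bar. The point farthest from 0 in each knockdown is EPHB2, at 3.54 and 3.84, among the other receptor tyrosine kinases.

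The genes with the pattern nearest to EGFR over the 9 libraries were CDC20, NEK6, LTBP4, PRELID1 and THAP12, at root mean square distances of 0.0311, 0.0313, 0.0317, 0.0367 and 0.0440 on the centred log2 CPM scale among 12679 genes that averaged 1 CPM or more. TGFA had the widest range of group means of the 10 genes, 1.78 on the log2 scale, just ahead of ERBB3 at 1.74. Nearest to TGFA were BDKRB2, HYI, ROR1, RGS2 and NAV3, at distances of 0.148, 0.171, 0.175, 0.182 and 0.187. The 9 libraries fall into 3 groups and are not 9 independent points.

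The authors' deposited table of changed genes for PRMT5kd lists 6808 genes, 7 of the 10 among them, and that for MEP50kd lists 6833 genes, 9 of the 10 among them. They are the same 7 and 9 genes as called here, all in the same direction. For TGFA the authors' deposited table gives log2 fold changes of 1.61 (their DESeq2) and 1.83 (their edgeR) in PRMT5kd and of 0.97 and 1.15 in MEP50kd. For EGFR the authors' deposited table gives 0.69 and 0.70 in PRMT5kd and 0.66 and 0.67 in MEP50kd.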

How the data were processed

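Total RNA depleted of ribosomal RNA was made into stranded libraries, per the labels' protocols. The submitters' processing notes name Trim Galore, STAR, HTSeq, DESeq2, edgeR and the build hg19; versions, annotation and the strand setting are not given in the sources used here. The authors deposited raw HTSeq counts per Ensembl gene, and tables of called genes with log2 fold changes and adjusted p-values from DESeq2 and edgeR. The 5 HTSeq summary lines were left out; reads on no gene were 11.9 to 14.5% of all HTSeq-counted reads, summary lines included.

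Counts were fitted here with edgeR 4.0.16 (R 4.3.3; TMM, filterByExpr, robust quasi-likelihood, group only, all 9 libraries), with Benjamini-Hochberg adjustment over 14582 genes at 0.05. The SE is the absolute log2 fold change divided by the square root of F. Levels are TMM-scaled CPM. A gene symbol was found for 36583 of the Ensembl IDs; exon lengths and coordinates are from GENCODE on GRCh38, not the counting build. Replicate pairs differed beyond counting noise (chi-square per degree of freedom 3.38 to 4.70), so none was merged. Tests were checked on simulated counts in which few genes were changed, in PRMT5kd only, unlike these data. Of the changed genes, 51.0% were called at 1.25-fold, 78% at 1.5-fold, 87.5% at 2-fold and 98% at 4-fold.

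The 10 genes and all lists were chosen with earlier results of these data known. Other genes were named if called in both knockdowns, in 1 direction, with an absolute log2 fold change of at least 0.5 in each (at most 6 a list), or with under 10 reads in all; 5 neighbours each were named for EGFR and for the gene of widest range. Some listed genes are not reported here by name. Alternatives were other scalings, filters, DESeq2 1.42.0, a replicate block, 6-library fits and leaving out each library.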

Additional observations from a re-analysis of the deposited data

Results flagged for a closer look

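For 7 of the 10 genes the effect of the PRMT5 hairpin differed from that of the MEP50 hairpin by a test of the difference itself, the log2 difference PRMT5kd minus MEP50kd in edgeR's quasi-likelihood fit, in which the control cancels. Of all genes tested, 19.2% were higher and 20.5% lower in PRMT5kd than in MEP50kd. The receptor ERBB3 was the 1 gene lower in PRMT5kd, by -1.77. The 6 ligands among the 10 were all higher in PRMT5kd: BTC by 0.99, HBEGF by 0.85, TGFA by 0.68, AREG by 0.63, EREG by 0.46 and NRG1 by 0.22. Of the tested ligands outside the 10, EGF was also higher, by 1.10 ± 0.299 (adjusted p = 0.00287, edgeR). NRG4 was not called (0.17 ± 0.158, adjusted p = 0.41, edgeR). In ERBB3 the knockdowns moved to opposite sides of the control, in TGFA and NRG1 both rose, and in HBEGF both fell. The BTC and AREG differences lost the call without single libraries, as given above.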

How the results depend on the processing

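No called fold change of the 10 genes changed sign under the alternatives run, while 8 values near 0 that were not called did (EREG, BTC, ERBB2 and ERRFI1). Of 507 alternative values, 10 lost the call: 7 for BTC, 2 for AREG and 1 for HBEGF. Leaving out 1 library gave 6 to 7 of the 10 genes called in PRMT5kd, 9 in MEP50kd and 5 to 7 between the knockdowns (edgeR). Of all genes, those fits called 6677 to 7636, 6885 to 7626 and 4962 to 5707 in the same order. With DESeq2 the counts were 7, 9 and 6. At least 1 CPM in 3 libraries left BTC untested. Replicate numbers did not pair the libraries: same-numbered libraries' deviations correlated at -0.0406 to 0.0412 over 9 pairs. With the replicate block 7423, 7549 and 5759 genes were called, among them 7, 9 and 7 of the 10 and 52, 51 and 41 pathway genes. Scalings moved the median of all genes by at most 0.0225 (log2). Of the 30 levels per length, 26 moved by more than 1 SD with the longest transcript. Low read numbers limit BTC and PDGFRA.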
